A study of Mus musculus with 4 samples.

Results

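Dual-specificity MAP kinase phosphatases are enzymes that remove phosphate from both the threonine and the tyrosine of the activation loop of a MAP kinase and so switch the kinase off. Members of the family differ in the kinase they prefer and in where they reside in the cell. *Dusp1*, *Dusp2*, *Dusp4* and *Dusp5* encode nuclear enzymes that are typically induced by stimuli that activate MAP kinases, *Dusp6*, *Dusp7* and *Dusp9* encode cytoplasmic enzymes with a preference for ERK, and *Dusp8*, *Dusp10* and *Dusp16* encode enzymes that act mainly on JNK and p38. Because several of these genes are themselves transcribed in response to MAP kinase signaling, they form feedback loops, and *Dusp1* in particular is known as a brake on cytokine production in macrophages. These 10 genes were followed in proteasome inhibitor–treated J774.1 cells, out of 20133 genes with a named probe. The family was selected on measured values of the same arrays, because *Dusp7* showed the largest decrease across all inhibitor arrays among genes measured on every array. The differences from DMSO below are therefore a description.

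J774.1 (J774 in the paper) is a mouse monocyte-macrophage line. One culture received only the control solvent, DMSO, and the others received MG132 (a proteasome inhibitor), epoxomicin (directed at the 20S proteasome) or ONX0914 (directed at β5 and β5i), each at 1 μM, and all were harvested after 4 hours. The treatment label of the ONX0914 array reads ONX-0912, whereas its treatment protocol and the paper name ONX0914. RNA of each culture was read on 1 single-color Agilent array, all 4 arrays lay on 1 slide, and neither genotype nor any other agent was varied.

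The value of a probe is its processed signal, the brightness left after the scanner software subtracted the background. Levels are given as this signal ± the error that the software estimated for the spot. For bright spots this error was a nearly fixed share of the signal, as with 4307 of 43066 for *Dusp6* after DMSO. It is thus not a spread measured between spots. Spots of the same probe had a median standard deviation between 0.056 and 0.061 on the log2 scale. Differences compare log2 signals, each taken relative to the 75th percentile of the array, which was a signal between 1448 and 1669. The software called between 60.3% and 63.1% of the spots well above background, and no spot was saturated. Precision is limited by the number of arrays. Since each condition had 1, no difference has a replicate check or a P value, and its error covers the reading of the spots alone, not the spread between cultures. All inhibitor arrays were compared with the same DMSO array. The macrophage genes *Csf1r*, *Adgre1*, *Itgam*, *Lyz2*, *Spi1*, *Ptprc*, *Fcgr1* and *Cd14* were well above background on every array, and none of 4 B cell genes was. Of the other marker lists, 2 of 5 T cell genes and 3 of 3 endothelial genes were well above background on every array, and 2 of 4 fibroblast genes were so after DMSO and 1 with each inhibitor. Of 4 epithelial genes, none was well above background after DMSO or ONX0914, while 1 was after MG132 and 2 after epoxomicin. The highest signal of that list was 9.23 after DMSO, 37.8 after MG132, 121 after epoxomicin and 11.3 after ONX0914, and its part in the results was not tested.

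The family differed from DMSO in both directions. Of the 10 genes, 9 were well above background on all 4 arrays and *Dusp9* on none. With MG132, 4 of these 9 genes were at least 2-fold higher than after DMSO (*Dusp1*, *Dusp4*, *Dusp8* and *Dusp16*) and 2 were at least 2-fold lower (*Dusp6* and *Dusp7*). Of 13771 genes compared, 7.24% passed that threshold upward and 3.68% downward. With epoxomicin, 5 genes were higher, with *Dusp10* as the addition, and the same 2 were lower, beside 8.48% and 4.40% of 13864 genes. With ONX0914, 2 genes were higher (*Dusp1* and *Dusp8*) and 2 lower (*Dusp6* and *Dusp7*), beside 3.27% and 1.40% of 13790 genes. *Dusp1* and *Dusp8* were thus higher and *Dusp6* and *Dusp7* lower on every inhibitor array, where 2.02% of 13464 genes were higher and 0.995% lower on all of them. The median log2 difference of the 9 genes was 0.83 after MG132, 1.15 after epoxomicin and 0.28 after ONX0914, and that of all genes was −0.02, −0.04 and −0.01. Under normexp, a model-based correction for the brightness around each spot, fitted over all spots, the median of the 9 genes was −0.067, 0.20 and −0.44, so that its sign turned for MG132 and ONX0914. The median of all genes was lower under this setting as well, at −0.28, −0.30 and −0.17. Since the family was picked from these same differences, no reading is attached to its shares.

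**Figure D1:**
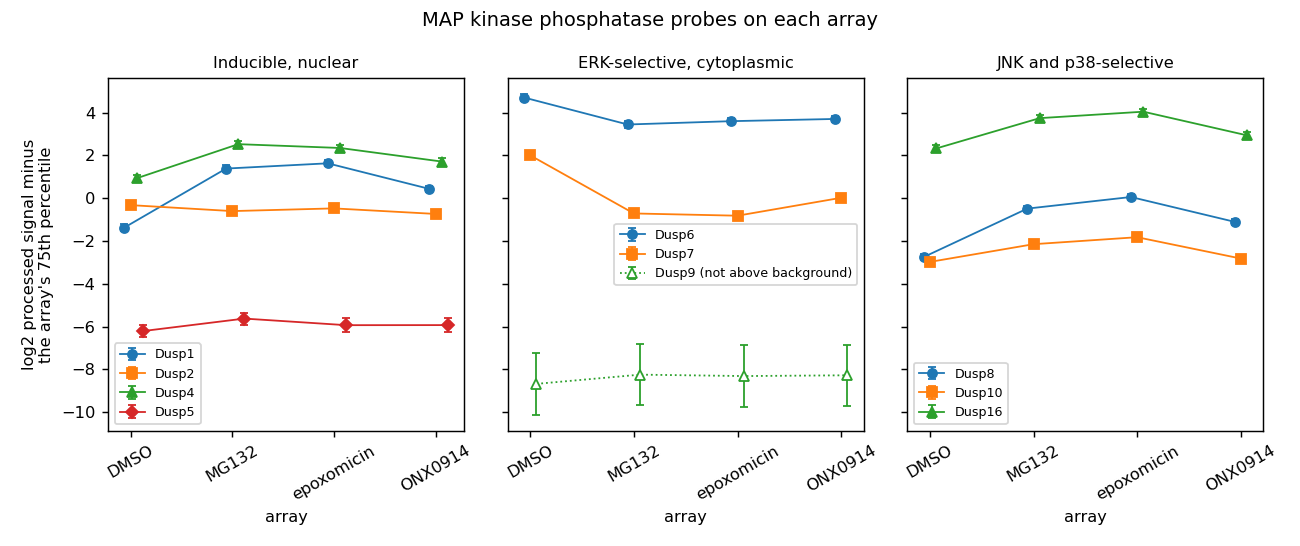
Log2 processed signal minus the 75th percentile of the array (y axis) for the probe of each phosphatase gene on the DMSO, MG132, epoxomicin and ONX0914 arrays (x axis), with 1 array per point and the error bars of the scanner software. Levels of different probes are not comparable, and the lines only join the values of 1 probe: *Dusp2*, *Dusp6* and *Dusp7* sit highest after DMSO, *Dusp1*, *Dusp4*, *Dusp5*, *Dusp8*, *Dusp10* and *Dusp16* sit lowest there, and *Dusp9* was not above background.

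The ERK-selective cytoplasmic group was lower where it was measured. *Dusp7* (NM_153459) had a signal of 6604 ± 660 after DMSO, 885 ± 88.6 after MG132, 948 ± 95 after epoxomicin and 1627 ± 163 after ONX0914. The DMSO array was the highest for this probe, the MG132 and epoxomicin arrays were close to each other, and the ONX0914 array lay between them and DMSO. The log2 difference from DMSO was −2.71 ± 0.20 after MG132 (6.56-fold lower), −2.82 ± 0.20 after epoxomicin (7.06-fold lower) and −1.98 ± 0.20 after ONX0914 (3.95-fold lower). *Dusp6* (NM_026268), which encodes the ERK phosphatase best known as a negative-feedback product of ERK signaling, had a signal of 43066 ± 4307 after DMSO, 15811 ± 1581 after MG132, 20291 ± 2029 after epoxomicin and 20932 ± 2093 after ONX0914. Here the inhibitor arrays were all well below DMSO and close together. The log2 differences were −1.26 ± 0.20 (2.40-fold lower), −1.11 ± 0.20 (2.15-fold lower) and −1.002 ± 0.20 (2.002-fold lower) in the same order of inhibitors, and the last value lay just past the threshold. With normexp over all spots, *Dusp6* differed by −0.92 after epoxomicin and by −0.86 after ONX0914, short of 2-fold. *Dusp9* (NM_029352), the third gene of this group, had signals of 4.02, 4.77, 5.25 and 5.17 after DMSO, MG132, epoxomicin and ONX0914. These are under the lowest signal called well above background on each array, which ranged from 14.7 to 20.3, so no difference is given for *Dusp9*. The promoters of the measured pair are shown because these were the members at least 2-fold lower on every inhibitor array. Each run covers the 250 bases before the transcription start in RefSeq (GRCm38.p6), written 5′ to 3′ on the strand of the gene. Capitals mark a match to 1 of the motifs searched for, and neither run holds one. *Dusp7* lies at chr9:106368382-106368631 on the plus strand and *Dusp6* at chr10:99262981-99263230 on the plus strand.
Dusp7: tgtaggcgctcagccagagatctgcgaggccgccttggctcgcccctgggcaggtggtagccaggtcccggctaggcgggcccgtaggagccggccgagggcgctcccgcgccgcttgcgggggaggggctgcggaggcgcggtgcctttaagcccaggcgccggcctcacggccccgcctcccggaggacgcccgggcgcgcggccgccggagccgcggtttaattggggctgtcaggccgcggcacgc
Dusp6: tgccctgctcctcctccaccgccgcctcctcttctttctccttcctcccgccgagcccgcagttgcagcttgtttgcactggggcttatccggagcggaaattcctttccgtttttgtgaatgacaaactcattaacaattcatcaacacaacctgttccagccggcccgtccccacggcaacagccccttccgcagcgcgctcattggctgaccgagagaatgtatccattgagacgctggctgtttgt

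The decrease of *Dusp7* is what selected the family, and its place among all genes is given for that reason. Among 12730 genes measured on every array, its decrease ranked 1 after MG132, 6 after epoxomicin and 2 after ONX0914. Ordered by the smallest of the 3 decreases, *Dusp7* ranked 1 at −1.98. The next gene, *Muc13*, which encodes a membrane mucin, differed by −1.90 after MG132, −2.11 after epoxomicin and −1.97 after ONX0914, from a fainter DMSO signal of 227. *Dusp6* ranked 67 in this order. The genes whose 3 differences lay nearest to those of *Dusp7* were *Cx3cr1* (Euclidean distance 0.37 on the log2 scale), *B3gnt7* (0.55), *Mxd3* (0.56), *Kbtbd11* (0.57) and *Ltb* (0.57). *Cx3cr1*, which encodes the fractalkine receptor, differed from DMSO by −2.56 after MG132, −2.61 after epoxomicin and −1.71 after ONX0914. *Ltb*, which encodes lymphotoxin-β, differed by −2.17, −2.76 and −1.81. Likeness was measured over 3 comparisons that share the DMSO array.

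**Figure D2:**
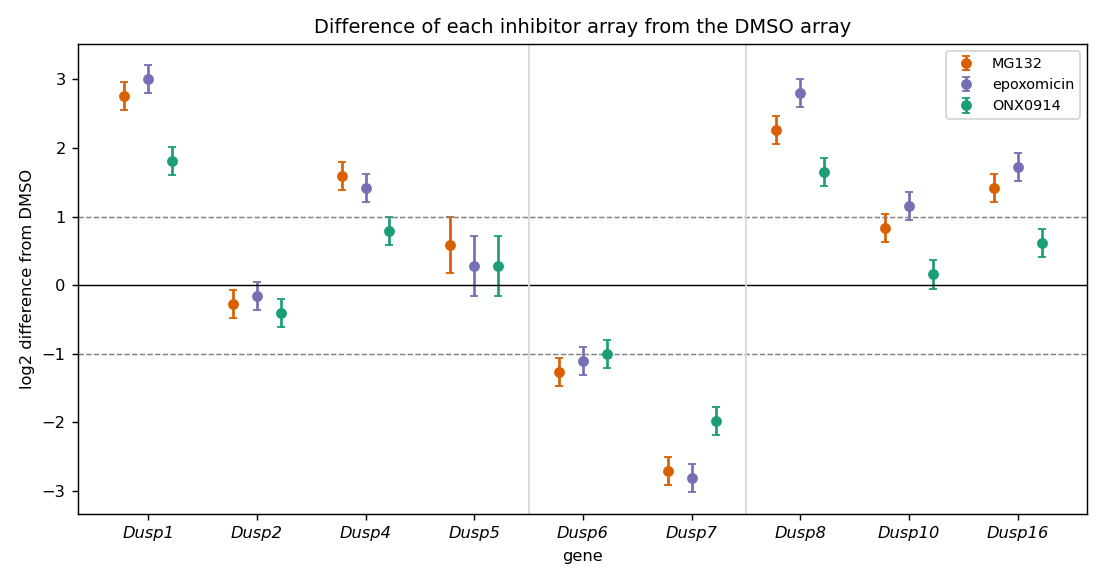
Log2 difference of the MG132, epoxomicin and ONX0914 arrays from the DMSO array (y axis) for the 9 phosphatase genes measured on all arrays (x axis), grouped as nuclear and inducible, ERK-selective, and JNK- and p38-selective. Points are single arrays, error bars combine the errors of the scanner software for both spots, and dashed lines mark 2-fold: *Dusp7* is lowest with each inhibitor at −2.71, −2.82 and −1.98, and *Dusp1* highest at 2.76, 3.00 and 1.80.

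The nuclear, inducible group was mixed. *Dusp1* (NM_013642), which encodes an enzyme that acts on p38, JNK and ERK, had a signal of 638 ± 63.9 after DMSO, 3790 ± 379 after MG132, 5177 ± 518 after epoxomicin and 2168 ± 217 after ONX0914. Each inhibitor array was higher than DMSO, epoxomicin most and ONX0914 least. The log2 differences were 2.76 ± 0.20 (6.75-fold), 3.00 ± 0.20 (8.01-fold) and 1.80 ± 0.20 (3.49-fold), and this was the largest increase in the family with every inhibitor. *Dusp4* (NM_176933), whose product acts on ERK and JNK, had a signal of 3145 ± 314 after DMSO, 8358 ± 836 after MG132, 8513 ± 851 after epoxomicin and 5266 ± 527 after ONX0914. MG132 and epoxomicin gave nearly the same level, and ONX0914 lay between these and DMSO. The differences were 1.60 ± 0.20, 1.42 ± 0.20 and 0.78 ± 0.20, so that *Dusp4* passed 2-fold after MG132 and epoxomicin and was 1.72-fold higher after ONX0914. *Dusp2* (NM_010090), an immune cell phosphatase of ERK and p38, had a signal of 1318 ± 132 after DMSO, 955 ± 95.6 after MG132, 1202 ± 120 after epoxomicin and 964 ± 96.5 after ONX0914. Its differences of −0.28 ± 0.20, −0.15 ± 0.20 and −0.41 ± 0.20 were at most about 2 times the spot error. *Dusp5* (NM_001085390), a nuclear ERK phosphatase, was faint, with signals of 22.2 ± 4.57, 29.3 ± 5.64, 27.3 ± 5.96 and 26.3 ± 5.83 on the DMSO, MG132, epoxomicin and ONX0914 arrays. Its differences of 0.59 ± 0.41, 0.28 ± 0.43 and 0.28 ± 0.44 lay within or little beyond their errors, and normexp over all spots turned them to −1.32, −1.65 and −1.36. The promoter of *Dusp1*, at chr17:26508473-26508722 on the minus strand, is shown because this gene was the highest of the family. The capitals mark TGACGTCA, the cyclic AMP response element that CREB and ATF family factors recognize.
Dusp1: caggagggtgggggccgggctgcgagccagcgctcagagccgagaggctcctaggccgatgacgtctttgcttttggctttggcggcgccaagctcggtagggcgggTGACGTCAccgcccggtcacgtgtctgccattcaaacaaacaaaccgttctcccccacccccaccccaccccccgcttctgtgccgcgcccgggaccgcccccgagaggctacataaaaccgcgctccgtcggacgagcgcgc

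In the JNK- and p38-selective group, *Dusp8* was at least 2-fold higher with every inhibitor, *Dusp16* with MG132 and epoxomicin, and *Dusp10* with epoxomicin alone. *Dusp8* (NM_008748), a phosphatase of JNK and p38, had a signal of 245 ± 24.7 after DMSO, 1036 ± 104 after MG132, 1738 ± 174 after epoxomicin and 747 ± 74.8 after ONX0914. All inhibitor arrays were above DMSO, and epoxomicin was the highest. The log2 differences were 2.27 ± 0.21 (4.81-fold), 2.81 ± 0.21 (7.002-fold) and 1.65 ± 0.21 (3.13-fold), and normexp over all spots lowered them to 1.24, 1.76 and 0.70, the last short of 2-fold. *Dusp16*, which encodes a JNK phosphatase, had 2 probes of the same transcript (NM_130447). The brighter probe gave 8258 ± 826 after DMSO, 19428 ± 1943 after MG132, 27587 ± 2759 after epoxomicin and 12306 ± 1231 after ONX0914. The fainter probe gave 245 ± 24.9, 616 ± 61.8, 761 ± 76.3 and 387 ± 39.1 in that order of arrays. On both probes the DMSO array was lowest and the epoxomicin array highest. The differences were 1.42 ± 0.20, 1.72 ± 0.20 and 0.61 ± 0.20 for the brighter probe and 1.51 ± 0.21, 1.61 ± 0.21 and 0.70 ± 0.21 for the fainter one, closer between probes than the spot error. *Dusp10* (NM_022019), a phosphatase of p38 and JNK with a role in innate immune responses, had a signal of 209 ± 21.3 after DMSO, 327 ± 33.0 after MG132, 472 ± 47.5 after epoxomicin and 227 ± 23.2 after ONX0914. The ONX0914 array was hardly above DMSO. The differences were 0.83 ± 0.21, 1.15 ± 0.21 and 0.16 ± 0.21, and the only one past 2-fold, that after epoxomicin, was 0.85 under normexp without outlier spots and to 0.20 with all spots. With all spots *Dusp10* also turned to −0.07 after MG132 and −0.60 after ONX0914. The promoter of *Dusp8*, at chr7:142095285-142095534 on the minus strand, is shown because *Dusp8* and *Dusp1* were the members at least 2-fold higher on every inhibitor array. Its capitals mark 2 copies of the same 8 letters.
Dusp8: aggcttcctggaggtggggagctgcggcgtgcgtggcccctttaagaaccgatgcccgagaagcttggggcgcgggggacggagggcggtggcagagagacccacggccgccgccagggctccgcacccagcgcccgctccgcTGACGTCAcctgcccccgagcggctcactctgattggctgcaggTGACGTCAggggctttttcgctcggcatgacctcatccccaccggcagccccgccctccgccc

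The 8 phosphatase genes with an entry in the RefSeq promoter table (all but *Dusp4* and *Dusp9*) were searched on both strands, from 250 bases before to 50 bases after the transcription start. TGACGTCA, which reads the same on either strand, was present in 2 of these promoters and in 1.79% of 32851 promoters of the same length. The copy of *Dusp1* began 143 bases before the start and those of *Dusp8* began 107 and 63 bases before it. The serum response element (CArG box), bound by SRF, was found in *Dusp5*, whose copies began 82 and 72 bases before the start, and in 1.63% of all promoters. TGACTCA or its complement TGAGTCA (AP-1 site, 5.20% of all promoters), CCGGAAGT (Ets site, 3.89%), TATAAA (13.6%), TGATGNAA (C/EBP-ATF element, 3.97%) and the NF-kB site (0.807%) were in none of the 8. No match overlapped another. The 8 windows were rich in G and C, from 57.3% in *Dusp6* to 78.7% in *Dusp7*, where the median of all promoters was 52.7%. CG dinucleotides numbered 19 to 41 against a median of 7. A match gives only the presence of these letters, and binding of a factor was not measured.

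**Figure D3:**
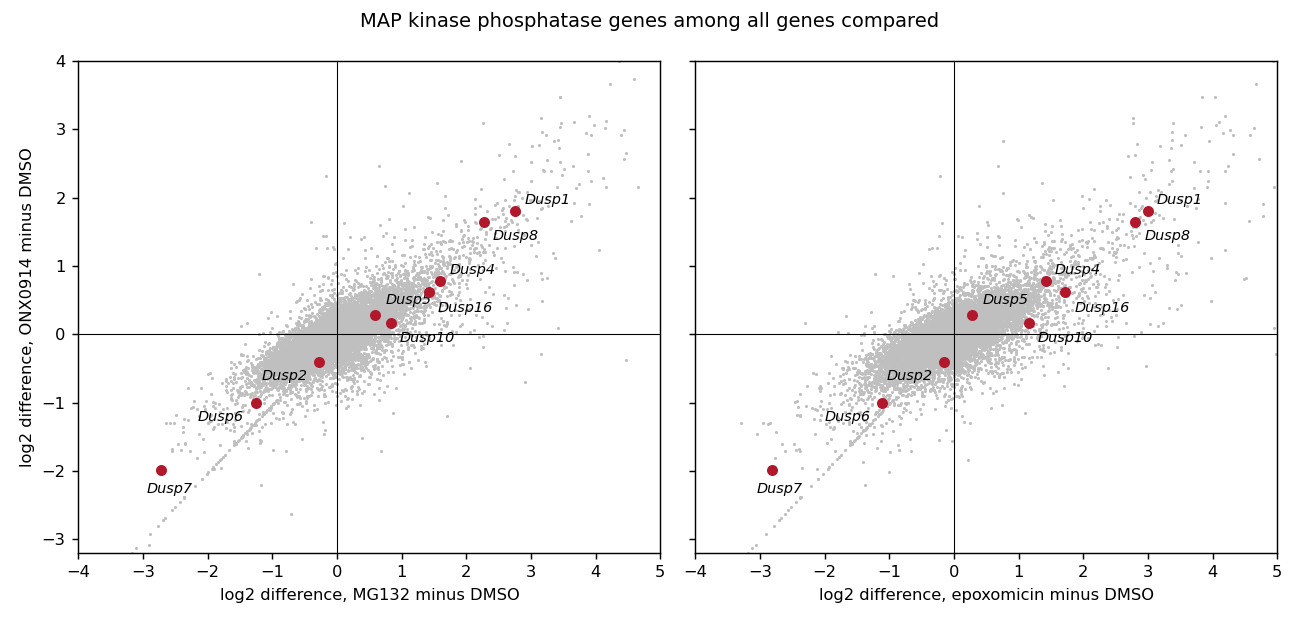
Log2 difference of the ONX0914 array from DMSO (y axis) against that of the MG132 array (left) or the epoxomicin array (right), with 1 gray point per gene and the 9 measured phosphatase genes in red. The limits leave out 18 of 13497 genes on the left and 24 of 13520 on the right, the diagonal line of points at lower left holds genes whose inhibitor signals are bounds, and all comparisons share the DMSO array; *Dusp7* stands at the lower left and *Dusp1* and *Dusp8* at the upper right.

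The inhibitors were also set against each other, which leaves the DMSO array out. Epoxomicin and MG132 were the closest pair. The log2 difference between these arrays (epoxomicin minus MG132) ranged over the 9 genes from −0.31 ± 0.42 for *Dusp5* to 0.54 ± 0.20 for *Dusp8*. For 95% of all 12730 genes it lay between −0.44 and 0.43, and *Dusp8* was the only phosphatase gene outside this range. ONX0914 differed more. ONX0914 minus MG132 was 0.73 ± 0.20 for *Dusp7* and −0.95 ± 0.20 for *Dusp1*, the genes outside the middle 95% of all genes (−0.93 to 0.68). ONX0914 minus epoxomicin was 0.84 ± 0.20 for *Dusp7*, −1.20 ± 0.20 for *Dusp1* and −1.16 ± 0.20 for *Dusp8*, outside the range of −1.13 to 0.78. *Dusp7* was thus higher, and *Dusp1* lower, after ONX0914 than with either of the other inhibitors, that is, closer to its DMSO level. *Dusp6* departed least among the genes that passed 2-fold, with ONX0914 at 0.26 ± 0.20 against MG132 and 0.10 ± 0.20 against epoxomicin. As a share of the difference seen after MG132, the difference after ONX0914 was 0.79 for *Dusp6*, 0.73 for *Dusp7*, 0.73 for *Dusp8*, 0.65 for *Dusp1*, 0.49 for *Dusp4*, 0.48 for *Dusp5*, 0.43 for *Dusp16* and 0.19 for *Dusp10*. It was 1.48 for *Dusp2*, the only gene with the larger difference after ONX0914. Unlike the differences between inhibitors, these ratios use the DMSO array, whose value enters both differences. The ratios of *Dusp2* and *Dusp5* rest on differences near the spot error. Without replicate cultures these differences between compounds were not tested, and none shows that the compounds act alike where it is small.

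The genes of the kinases that these phosphatases act on were examined on the same arrays. Of 10 MAP kinase genes, 9 were well above background, none passed 2-fold with any inhibitor, and their log2 differences from DMSO lay between −0.70 and 0.43. Over all genes, 7.24% were higher and 3.68% lower after MG132, so that few or none of 9 genes would pass at that share, and nothing is read from the count. *Mapk3* (ERK1) differed by −0.55 after MG132, −0.70 after epoxomicin and −0.09 after ONX0914. *Mapk14* (p38α) differed by −0.54, −0.54 and −0.22. The median of the list was 0.00 after MG132, 0.12 after epoxomicin and 0.00 after ONX0914. Among the 7 MAP2 kinase genes, which encode the activators of MAP kinases, *Map2k6* passed 2-fold, with −1.18 for MG132, −0.95 for epoxomicin and −0.46 for ONX0914. Among the MAP3 kinase genes, which act one step further upstream and of which 14 of 15 were compared for MG132 and epoxomicin and 13 for ONX0914, *Map3k11* did so, with −1.03, −1.10 and −0.58. Of 10 genes of MAP kinase–activated kinases, *Rps6ka2* was 1.19 higher after MG132 and 1.35 higher after epoxomicin, from a faint DMSO signal of 30.4, and 0.25 higher after ONX0914. Apart from *Mapk3* and *Mapk14*, the genes named in this paragraph are those that passed 2-fold, and all were named after their values were seen.

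**Figure D4:**
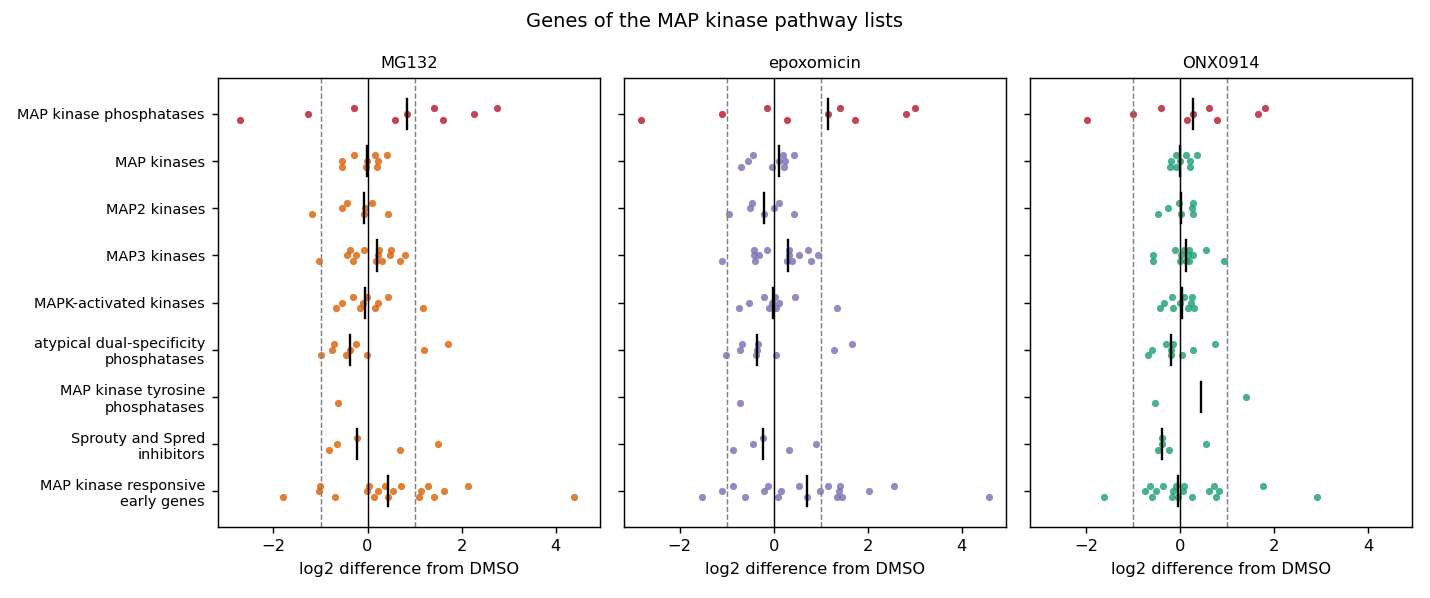
Log2 difference from DMSO (x axis) of each gene of the phosphatase family (red) and of 8 other lists of the MAP kinase pathway (y axis), in 1 panel per inhibitor. Points are genes with a value or a bound on the arrays compared, black bars are list medians and dashed lines mark 2-fold: the 9 MAP kinase genes lie between −0.70 and 0.43 and the phosphatase genes between −2.82 and 3.00.

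Genes of phosphatases outside the family and of inhibitors of the pathway differed in both directions. Of 14 atypical dual-specificity phosphatase genes, which lack the MAP kinase–binding domain, 9 were compared, with a median difference of −0.36 after MG132, −0.36 after epoxomicin and −0.19 after ONX0914. In this list 2 genes were at least 2-fold higher after MG132 (7.24% of all genes), and 2 were higher (8.48%) and 1 lower (4.40%) after epoxomicin. None passed after ONX0914, where 3.27% of all genes were higher and 1.40% lower. *Dusp11*, which encodes a phosphatase of RNA, was 1.20 higher after MG132, 1.29 higher after epoxomicin and 0.27 higher after ONX0914. *Dusp13* was not well above background after DMSO and was at least 1.71, 1.67 and 0.75 higher. *Dusp19* was well above background after DMSO alone, so that its differences of −0.99 after MG132, −1.01 after epoxomicin and −0.69 after ONX0914 are bounds. A 2-fold decrease of *Dusp19* after MG132 or ONX0914 cannot be told. Among tyrosine phosphatases of MAP kinases, *Ptpn7* had signals of 13993 after DMSO, 7998 after MG132, 8612 after epoxomicin and 9402 after ONX0914, and differed by −0.62, −0.72 and −0.53. *Ptprr* was well above background after ONX0914 alone, at a signal of 38 and at least 1.41 higher than DMSO. Of the 7 Sprouty and Spred genes, inhibitors of the Ras-ERK branch, 5 were compared and 4 of them were measured on every array. *Spry4* was 1.49 higher after MG132 at a faint DMSO signal of 20.6, and *Spry2*, *Spred1* and *Spred2* did not pass 2-fold with any inhibitor. *Spry1* was well above background after DMSO alone, at a signal of 23.5, so that its difference of −0.21 after MG132 is a bound and a 2-fold decrease cannot be told. No gene of these lists was found past 2-fold in the same direction with all inhibitors, bounds counted at their value, and those named were named after their values were seen.

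The list of early genes that respond to MAP kinases had genes on both sides of DMSO as well. It also holds *Srf*, *Elk1*, *Elk3* and *Elk4*, which encode transcription factors and are counted with the early genes. Of the 22 genes listed, 19 were compared. After MG132, 7 were at least 2-fold higher and 3 lower, after epoxomicin 8 higher and 2 lower, and after ONX0914 2 higher and 1 lower. Over all genes the shares were 7.24% higher and 3.68% lower after MG132, 8.48% and 4.40% after epoxomicin, and 3.27% and 1.40% after ONX0914. *Atf3* and *Zfp36* were higher on all inhibitor arrays, and no gene was lower on all. *Atf3*, a stress-induced transcription factor, had a signal of 5919 after DMSO, 109096 after MG132, 142720 after epoxomicin and 43357 after ONX0914, or log2 differences of 4.39, 4.57 and 2.91. *Zfp36*, which encodes an mRNA-destabilizing protein, differed by 2.13, 2.55 and 1.76 from a DMSO signal of 268. Past 2-fold upward after MG132 and epoxomicin, but not after ONX0914, were *Fosl2* (1.42 and 1.39), *Jun* (1.14 and 1.46) and *Junb* (1.29 and 1.35). The same held for *Ier3* (1.62 and 2.02) and *Ier5* (1.09 and 1.15), and these genes too were named after their values were seen. The lower genes were *Myc* (−1.81 after MG132, −0.87 after epoxomicin and −1.62 after ONX0914), *Etv4* (−1.03, −1.52 and −0.74) and *Elk3* (−1.001, −1.10 and −0.64), named after their values were seen. *Etv4* encodes an Ets factor known as a target of ERK signaling. *Fos* and *Fosb* had opposite signs between inhibitors and were also named later: *Fos* differed by 0.71 after MG132, 1.40 after epoxomicin and −0.59 after ONX0914, and *Fosb* by 0.54, 0.98 and −0.37. The list median was 0.43 after MG132, 0.70 after epoxomicin and −0.04 after ONX0914.

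**Figure D5:**
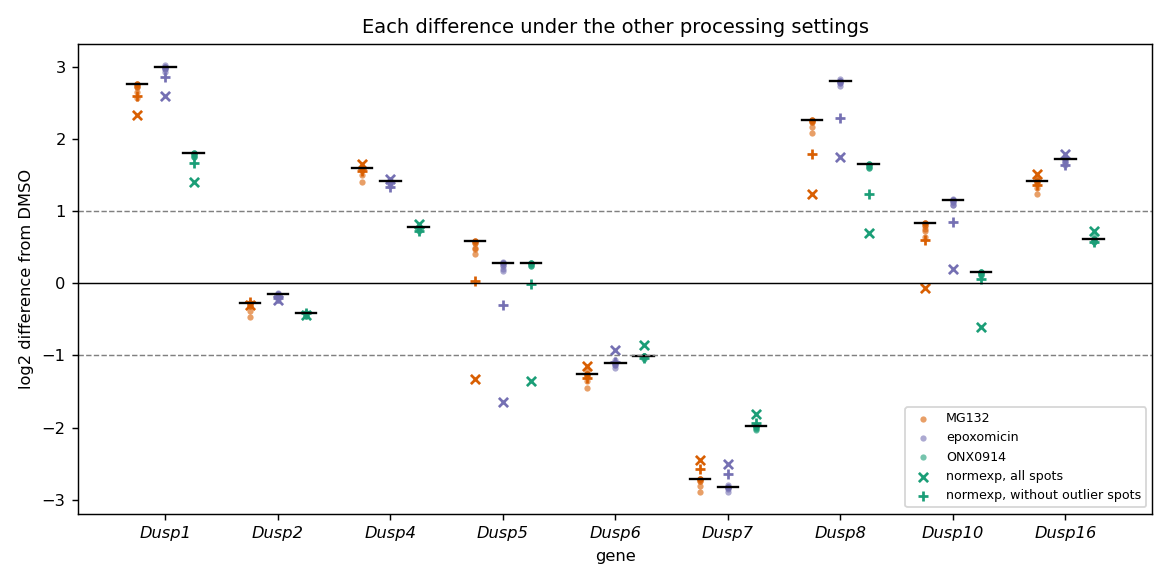
Log2 difference from DMSO (y axis) of each measured phosphatase gene (x axis) after MG132, epoxomicin and ONX0914 under the reported setting (black bars) and 10 other settings (points), with crosses for normexp over all spots and plus signs for normexp without outlier spots. Dashed lines mark 2-fold; the faint genes *Dusp5*, *Dusp8* and *Dusp10* move most, for example *Dusp5* after epoxomicin from 0.28 to −1.65, and *Dusp7* stays between −2.90 and −1.81.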

How the data were processed

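RNA of 4 J774.1 cultures was hybridized to 4 arrays, grouped by the treatment label or, for ONX0914, by the title. The authors deposited the intensity of each spot from Feature Extraction 10.7.1.1, background-subtracted within the array, with its error and detection calls. They also deposited a table of log2 values from GeneSpring, relative to each probe's median, whose scaling settings are not given in the sources used here. Over 22417 probes its values correlated at 0.9996 or more with the scaled signals used here. The paper names a human design, but the file headers give a mouse design.

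Control spots were left out, and the log2 of the processed signal was scaled to the 75th percentile of all other spots of the array. Spots of a probe were averaged without those marked as outliers. Transcript accessions named 26581 of 39429 probes (67.4%) through RefSeq (GRCm38.p6). The brightest probe represented a gene. A gene was compared when well above background on at least 1 array of the comparison, and a dim signal was replaced by the array's lowest signal well above background, if that was higher. Where the replaced signal was then the higher one, no difference was given. Genes past 2-fold were counted. The error of a difference is the root sum of squares of both spot errors. The members, lists and motifs were chosen with earlier results of these data known. Named genes are the 10 members, list genes past 2-fold with all inhibitors (up to 4 a list), the 5 genes nearest to *Dusp7* and its rank neighbors, and others are said to be chosen later. The alternatives were normexp (offset 50, on median spot and background brightness) with and without outlier spots, quantile normalization, other scalings, the authors' table, the mean over probes, no bounds, outlier spots kept, a 4-fold threshold and a stricter filter. The calculation was tested on simulated data. Python 3.11.15, numpy 2.4.6, pandas 2.3.3, matplotlib 3.10.9, R 4.3.3 and limma 3.58.1 were used.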

Additional observations from a re-analysis of the deposited data

How the results depend on the processing

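Over 10 other settings, 22 of the 27 differences of the measured phosphatase genes kept their sign. Not all of these settings could change the values. Dropping the bounds or keeping outlier spots left every member as it was, and the mean over probes changed *Dusp16* alone. The other scalings and the authors' table moved all members of a comparison by the same amount. Normexp and quantile normalization were the settings that moved members by different amounts. *Dusp1*, *Dusp2*, *Dusp4*, *Dusp7* and *Dusp16* kept both sign and side of the 2-fold threshold with every inhibitor. The exceptions all came from normexp: *Dusp5* and *Dusp10* changed sign and *Dusp6*, *Dusp8* and *Dusp10* lost a call, as given above. With all spots, *Dusp5* passed 2-fold downward with every inhibitor, so that 3 genes were lower with MG132. Without outlier spots, *Dusp5* turned to −0.30 with epoxomicin and −0.0047 with ONX0914. The median of the family with MG132, epoxomicin and ONX0914 was −0.067, 0.20 and −0.44 with normexp over all spots, as given above, and 0.60, 0.85 and 0.054 without outlier spots. With MG132 it was 0.73 after a shift to the median and 0.64 with no scaling. With ONX0914, 1 gene was higher under normexp over all spots. At a 4-fold threshold 2 genes were higher and 1 lower with MG132 and with epoxomicin, and 0 and 0 with ONX0914. The share of all genes past 4-fold is not given here, so nothing is read from these counts. Over all genes, normexp with all spots gave 468, 570 and 192 higher genes (997, 1176 and 451 as reported) and 2540, 3009 and 2681 lower genes (507, 610 and 193), and without outlier spots 601, 696 and 214 higher and 283, 379 and 74 lower. The share of higher genes among those past 2-fold with MG132 was 66.3%, 54.8% after a shift to the median and 45.0% with no scaling, and with ONX0914 it was 70.0%, and 59.2% in the authors' table, where 358 genes were lower. The authors' values were compared without bounds. With the processed signal in place of bounds, and the scaling as reported, 347 genes were lower with ONX0914 and the share was 60.4%. With no scaling the median of all genes lay at −0.20 with MG132. That setting leaves in the difference between the 75th percentiles of the arrays, a signal of 1448 with MG132 and 1647 with DMSO. The cause of the shifts under normexp was not tested. No paired analysis was possible because each condition has 1 array. Signals near background, as for *Dusp5* and *Dusp9*, limit what can be read.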
